A study of Mus musculus with 2 samples.

Results

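The genes described here encode the proteins that liver and yolk sac release into blood plasma, together with 2 amino acid enzymes of the liver. Of 42 listed genes, 40 had a probe set of their own on the array, out of 12393 genes with such a probe set in all. The members are a list of named genes with no threshold on a signal, though it was drawn up with earlier results of these data known. Trf (transferrin) shared its probe set with another gene, Gc (vitamin D binding protein) had none, and neither is given a value. Gene expression was measured on Affymetrix mouse arrays in teratomas, which are growths of many tissue types that arise from transplanted pluripotent cells. One group held tumours of C57BL/6 (B6) ES cells and the other tumours of EiPS cells, which the labels also call 1E12 iPS, likewise of strain C57BL/6 (B6), and the design text describes the tumours of the EiPS cells as in regression. Both kinds of cell were placed under the skin of male B6 mice, and the growths were removed at week 6. Each group was 1 array, which held the combined RNA of 2 tumours. No difference below has a replicate or a test. Each compares these 2 RNA pools, and their number limits the precision. The labels name no cell type, and they record no step that removed blood vessels or immune cells of the host.

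In the embryo the visceral endoderm of the yolk sac makes plasma proteins before the liver does, and hepatocytes take over as the liver forms. Both cell types secrete carriers such as albumin, alpha-fetoprotein and transthyretin, apolipoproteins that package fat, and the zymogens of the clotting cascade. Some of these genes are also active elsewhere. Enterocytes make apolipoproteins of chylomicrons, macrophages make apolipoprotein E, and the choroid plexus of the brain makes transthyretin.

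A signal is the authors' MAS5 value of a probe set on a linear scale. Where a gene had several probe sets, the one highest in mean log2 signal gives its value. A floor of 25.98 was set from 72 probe sets of odorant, taste and pheromone receptors that are taken to be silent here. A signal under the floor was raised to it, and a fold against it is written as "at least". Signals of different genes are not comparable with each other, since each probe set has its own response.

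Of the plasma protein genes measured, 16 had signals at least 2-fold higher in the EiPS tumours and none was 2-fold lower. Of the 40 genes, 5 were under the floor on both arrays, 24 were above it on both, 10 in the EiPS tumours only and 1 in the B6 ES tumours only. Over all measured genes, 4.67% were above it in the EiPS tumours only and 2.08% in the B6 ES tumours only. Of those 24, 16 were higher in the EiPS tumours, 9 by at least 2-fold and none lower by that much, with a median log2 difference of 0.55. Over all such genes of the arrays, 55.3% were higher, 4.89% were at least 2-fold higher, and the median was 0.06. With the genes above the floor on 1 array, 16 of 35 reached 2-fold higher and the median was 0.88, beside 5.79% of all 10953 measured genes higher and 3.05% lower by 2-fold. The 10 genes above the floor in the EiPS tumours only could differ in no other direction, so that larger count is no support for one. The same holds for genes above it in the EiPS tumours only in the groups and lists below. Of all measured genes, 56.2% were higher in the EiPS tumours, a share to set beside those counts of higher genes. Beside counts past 2-fold in those groups and lists stand 5.79% of all measured genes higher and 3.05% lower by as much. For genes above the floor on both arrays, the share at least 2-fold higher is 4.89%. Of the 13 genes with a signal over 100 on both arrays, 10 were higher and 3 lower, and 4 were at least 2-fold higher, beside 53.3% of all such genes higher and 2.91% at least 2-fold higher. Whether more cells of a type or more RNA per cell lay behind a higher signal cannot be told apart in pooled tissue.

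**Figure D1:**
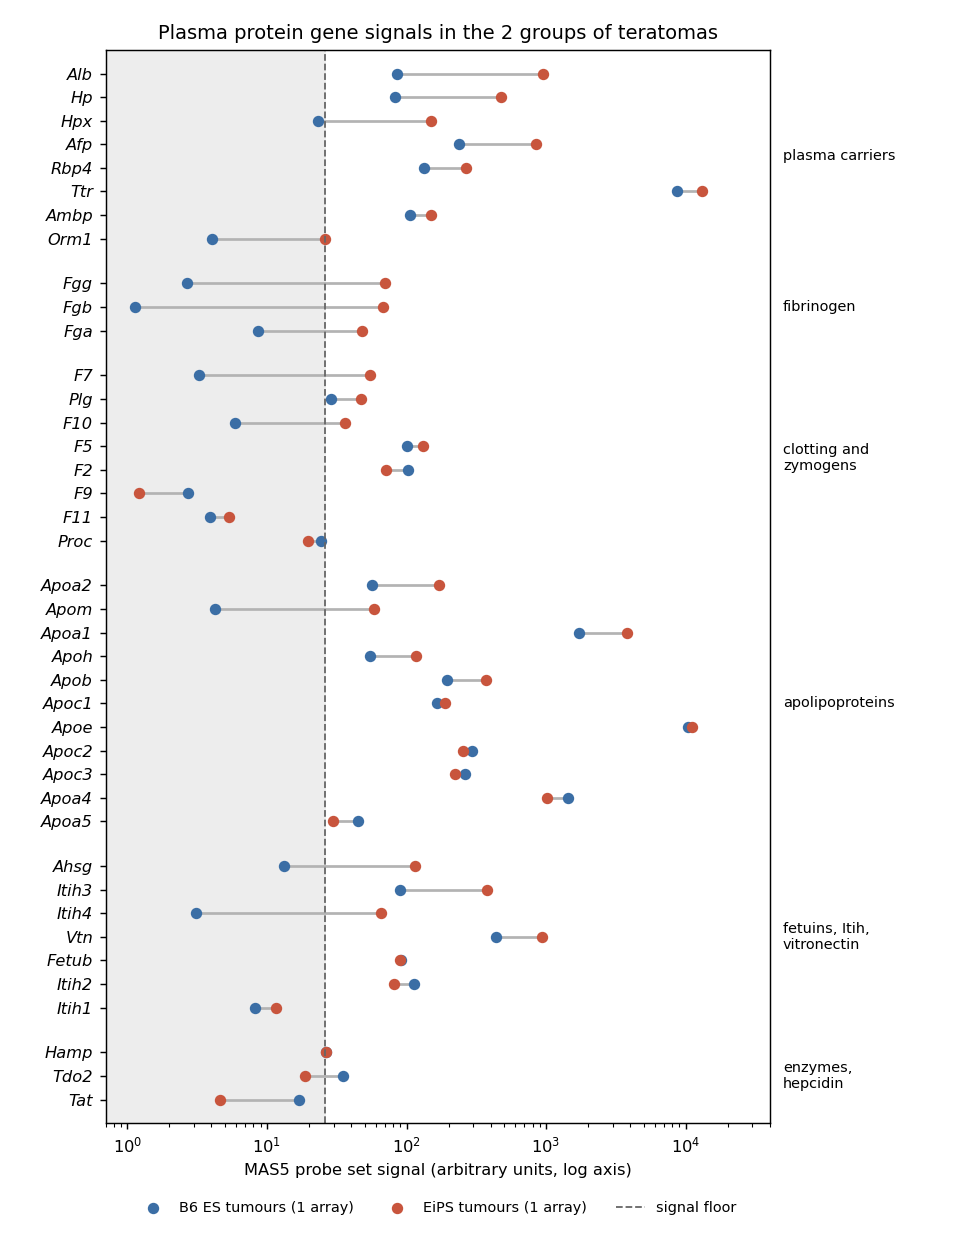
Signals (arbitrary units, log axis) of the 40 plasma protein genes on the 2 arrays, grouped by role, with the signal floor dashed and the range below it shaded. All 3 fibrinogen chains lie under the floor in the B6 ES tumours and above it in the EiPS tumours, while Apoe and Fetub have nearly the same signal in both.

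The carriers of plasma had a median log2 difference of 1.42, close to the 1.39 of the fibrinogen chains, whose values are all lower bounds. Their order turned with a lower floor, the 75th percentile of those receptors (1.42 and 1.79), with no floor (2.19 and 4.72) and with averaged probe sets, where the carriers at 1.06 also fell below the fetuin group at 1.20. Of 8 carriers measured, 8 were higher in the EiPS tumours, though Orm1 only by reaching the floor. Of the 8, 5 were at least 2-fold higher, beside 5.79% of all measured genes. Alb, which encodes albumin, the main protein of adult plasma, read 86.1 in the B6 ES tumours against 946 in the EiPS tumours, 10.99-fold higher. Afp, the fetal counterpart of albumin, had signals of 238 and 853, 3.58-fold higher. Its 5 probe sets did not give one answer: 3 differed by 1.74 to 1.85 on the log2 scale, the fourth by 0.19 at signals of 29.4 and 33.6, near the floor, and the last was under the floor on both arrays.

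Hp (haptoglobin, which binds free haemoglobin) had signals of 82.0 and 475, 5.79-fold higher in the EiPS tumours. Hpx (hemopexin, which binds free haem) had 23.3 and 150.4, at least 5.79-fold higher, or 0.59 on the log2 scale with a floor of 100. Both scavengers were thus low on the B6 ES array and well above the floor on the other. Rbp4, the carrier of retinol, lay just past 2-fold, with 134 and 269 and a fold of 2.005, and its log2 difference was 0.88 to 0.92 under the 3 other scalings. Ambp, the precursor of alpha-1-microglobulin and bikunin, was 1.42-fold higher, with 106 and 151. Orm1 (orosomucoid, an acute phase protein) had 4.03 in the B6 ES tumours and a signal at the floor in the EiPS tumours, and no fold is read from it.

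Ttr (transthyretin, a carrier of thyroxine and of Rbp4 protein) had strong signals on both arrays and differed by less than 2-fold on 2 of its 3 probe sets. They read 8629 and 13102 (1.52-fold higher in the EiPS tumours), 5351 and 10172 (1.90-fold) and 2732 and 6284 (2.30-fold). All 3 probe sets went the same way.

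Alb and Afp are adjacent genes on chromosome 5, and the promoters of both hold the letters of a C/EBP motif, read by a family of factors that liver expresses. The stretches are shown because both genes had higher signals in the EiPS tumours. Each is the 140 bases before the RefSeq start site in build GRCm38.p6, read 5′ to 3′ on the gene's strand, with matches to TTGCNNAA or its reverse complement TTNNGCAA in capitals. Alb lies at chr5:90460730-90460869 and Afp at chr5:90490574-90490713, both on the plus strand.
Alb: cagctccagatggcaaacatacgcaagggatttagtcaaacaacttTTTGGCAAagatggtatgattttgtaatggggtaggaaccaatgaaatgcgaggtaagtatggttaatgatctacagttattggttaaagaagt
Afp: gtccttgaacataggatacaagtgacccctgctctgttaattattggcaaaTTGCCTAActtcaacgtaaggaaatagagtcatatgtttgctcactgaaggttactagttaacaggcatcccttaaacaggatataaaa
The match in Alb runs from -94 to -87, counted from the start site, and that in Afp from -89 to -82.

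All 3 chains of fibrinogen, the soluble precursor of the clot, were under the floor in the B6 ES tumours and above it in the EiPS tumours. Fga (the alpha chain) had signals of 8.56 and 47.7, at least 1.84-fold higher in the EiPS tumours. Fgb (beta) had 1.14 and 68.1, at least 2.62-fold higher. Fgg (gamma) had 2.68 and 70.6, at least 2.72-fold higher. No chain reached 100 in either pool, so these are faint signals whose bounds rest on the floor: with a floor of 49.0, the 98th percentile of those receptors, Fga was under it on both arrays and the other two were higher by at least 0.47 and 0.53 on the log2 scale.

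The 3 chains lie side by side on chromosome 3. Their promoters are shown because the 3 chains form 1 protein and had signals above the floor in the same tumours only, with capitals as for Alb. They are Fga at chr3:83026013-83026152 and Fgg at chr3:83007584-83007723 on the plus strand, and Fgb at chr3:83049864-83050003 on the minus strand.
Fga: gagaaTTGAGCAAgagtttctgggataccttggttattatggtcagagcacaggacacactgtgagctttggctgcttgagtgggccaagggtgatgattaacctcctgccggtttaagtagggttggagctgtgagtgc
Fgb: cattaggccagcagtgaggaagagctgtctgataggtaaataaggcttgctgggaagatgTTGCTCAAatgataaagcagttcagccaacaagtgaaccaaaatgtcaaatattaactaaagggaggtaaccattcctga
Fgg: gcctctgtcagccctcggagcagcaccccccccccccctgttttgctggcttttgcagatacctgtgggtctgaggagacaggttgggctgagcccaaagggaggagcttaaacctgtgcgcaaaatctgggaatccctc
The match in Fga runs from -135 to -128 and that in Fgb from -80 to -73, and the letters searched are not in this window of Fgg.

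Of the 42 genes, 34 had 1 or more promoters in the RefSeq table, 40 promoters in all. Over the 250 bases before the start site, on either strand, TTGCNNAA was in 12 of the 40 (30%) and in 9.56% of all 32851 promoters in the table. Those 12 belong to Afp, Ahsg, Alb, Apoa2, Apob, F9, F11, Fga, Fgb, Hpx, Itih2 and Rbp4, a set that includes genes with higher signals in the EiPS tumours, Itih2 with a lower one, and F9 and F11 under the floor. The TATA box letters TATAAA were in 10 (25% against 12.4%), and CAAAGTCC, an HNF4 motif, was in 0 of 40 and in 1.196% of all promoters. With a share that small, 0 of 40 does not show a lack of HNF4 sites. The counts are of matches of letters, not of measured sites.

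Clotting factors and zymogens had few measurable signals, and those went both ways. F9, F11 and Proc (the protein C zymogen) were under the floor on both arrays. F7, which starts the extrinsic pathway, had signals of 3.27 and 55.2, at least 2.12-fold higher in the EiPS tumours, and was the only one of the 8 past 2-fold. Its log2 difference of 1.09 was 0.88 after quantile normalization, 0.83 with log2(signal + 64) and 0.17 with the floor of 49.0, so the call rests on these choices. F10, its neighbour on chromosome 8 and the factor that F7 activates, had 5.94 and 36.4, at least 1.40-fold higher by 1 of its 3 probe sets, with the other two under the floor. F2 (prothrombin) went the other way, with 103 and 71.7, 1.44-fold lower in the EiPS tumours. Plg, the zymogen of the clot-dissolving protease plasmin, had 28.6 and 47.1, 1.65-fold higher from a signal near the floor. F5, the cofactor of F10, had 101 and 131, 1.30-fold higher by its brightest probe set, and 39.7 and 107, 2.70-fold higher, by the other. The group's median log2 difference was 0.49 over 5 measured genes.

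**Figure D2:**
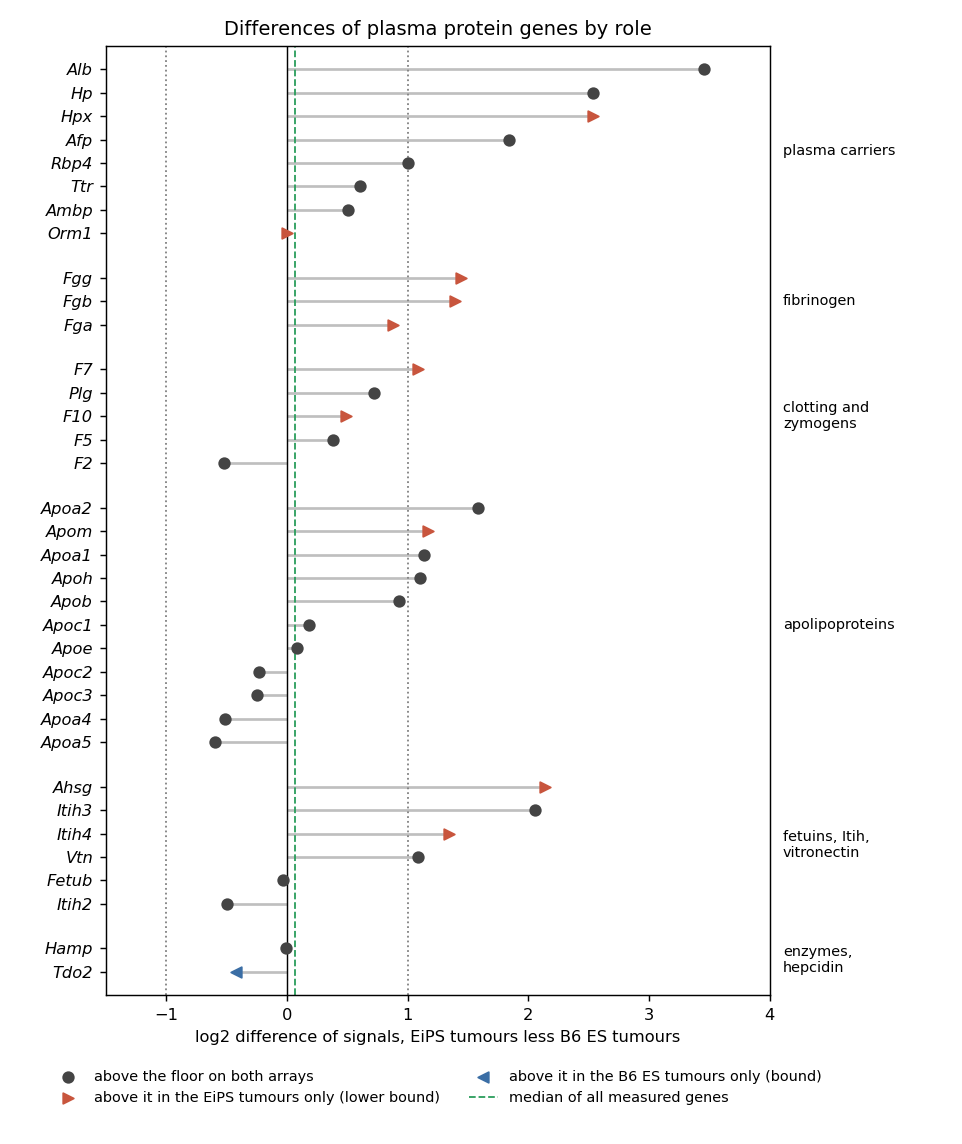
Log2 difference of signals (EiPS tumours less B6 ES tumours) for the 35 measured plasma protein genes by role; triangles are bounds, dotted lines mark 2-fold and the dashed line the median of all measured genes. Carriers and fibrinogen chains lie to the right of 0 (Orm1 at 0), and apolipoproteins spread from -0.60 for Apoa5 to 1.58 for Apoa2.

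Apolipoproteins divided, with 7 of 11 higher in the EiPS tumours, 4 of them by at least 2-fold, and 4 lower, none by 2-fold. Over all measured genes, 56.2% were higher and 5.79% at least 2-fold higher. Of the 10 apolipoproteins above the floor on both arrays, 6 were higher, 3 by at least 2-fold. Apoa1, the main protein of high-density lipoprotein, had 1721 and 3784 by its brightest probe set, 2.199-fold higher, and its 4 probe sets differed by 1.14 to 1.23 on the log2 scale. Apoa2, a second protein of that particle, had 56.6 and 169.6, higher by 1.58 on the log2 scale, by 0.95 with log2(signal + 64) and by 0.76 with a floor of 100. Apom, which carries sphingosine-1-phosphate, had 4.24 and 58.4, at least 2.25-fold higher, and by 1.24-fold or more on its other probe set. Its log2 difference of 1.17 was 0.97 after quantile normalization, 0.84 with log2(signal + 64), 0.74 with averaged probe sets and 0.25 with the floor of 49.0. Apoa2 and Apom thus had low signals in the B6 ES tumours, while Apoa1 was far above the floor in both.

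Apoh (beta-2-glycoprotein I, a phospholipid-binding plasma protein) had 54.7 and 117, 2.15-fold higher, a log2 difference of 1.10 that was 0.87 to 0.98 under the 3 other scalings and 0.61 with log2(signal + 64). Apob, the structural protein of very-low-density lipoprotein and chylomicrons, came just short of 2-fold, with 195 and 372, 1.90-fold higher. Apoc1, an inhibitor of lipoprotein uptake, had 166 and 188, 1.14-fold higher. Apoe, the ligand of lipoprotein receptors, had 10488 and 11114, 1.06-fold higher, a difference that turned to -0.12 on the log2 scale after quantile normalization, -0.04 with equal medians and -0.04 after loess scaling.

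The 4 apolipoproteins with lower signals in the EiPS tumours were Apoa4, Apoa5, Apoc2 and Apoc3. Apoa4, a chylomicron protein of the intestine, had 1448 and 1017, 1.42-fold lower, and 794 and 610, 1.30-fold lower, by its other probe set. Apoa5, a liver protein that lowers plasma triglyceride, had 44.6 and 29.5, 1.51-fold lower, the second signal near the floor. Apoc3, an inhibitor of lipoprotein lipase, was 1.19-fold lower (264 and 222) and Apoc2, its activator, 1.17-fold lower (296 and 252). The spread between probe sets of the same gene had an SD of 0.40 on the log2 scale over 3799 genes, 0.49 at signals under 100 and 0.29 among the genes of brightest signal. The differences of Apoc2 (-0.23) and Apoc3 (-0.25) were smaller than the SD over all genes, while those of Apoa4 (-0.51) and Apoa5 (-0.60) were larger than the SD of genes as bright as they are. The other Apoa4 probe set (-0.38) differed by less than the SD of 0.40. This SD leaves out variation between tumours, arrays and labelling, so it cannot tell a difference between the pools from such variation. The group's median of 0.18 was -0.02 without shared probe sets.

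Several of the genes are neighbours on a chromosome, and neighbours did not always differ alike. Apoa1, Apoc3, Apoa4 and Apoa5 stand in a row on chromosome 9, and Apoa1 was higher in the EiPS tumours while the rest of the row was lower. Apoe and Apoc1, adjacent on chromosome 7, and Apoc2 beside them all lay within 0.24 of 0 on the log2 scale in these pools (largest, Apoc2 at -0.23). Alb and Afp on chromosome 5 were both higher, as were the 3 fibrinogen genes on chromosome 3 by their bounds.

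**Figure D3:**
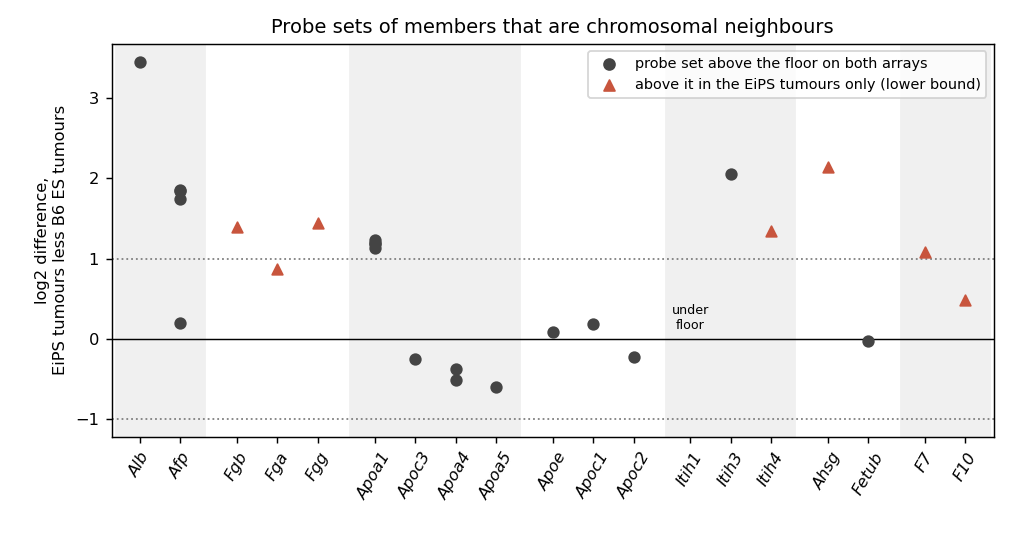
Log2 difference (EiPS tumours less B6 ES tumours) of each probe set of members that lie next to or close to one another, with shading for each chromosomal group and triangles for lower bounds. The 4 Apoa1 probe sets lie above 1 while those of Apoc3, Apoa4 and Apoa5 lie below 0.

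Fetuins, the heavy chains of inter-alpha-trypsin inhibitor and vitronectin also divided. Ahsg (fetuin A, an inhibitor of mineral deposition) had signals of 13.2 and 114.6, at least 4.41-fold higher in the EiPS tumours. Its neighbour on chromosome 16, Fetub (fetuin B), had 92.0 and 90.2, a difference of -0.03 on the log2 scale. The pair thus gave both the largest bound of the group and its value nearest to 0.

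Some heavy chains of inter-alpha-trypsin inhibitor are bound to hyaluronan in matrix. Itih3 had 90.3 and 376, 4.17-fold higher in the EiPS tumours, and Itih4 had 3.12 and 66.1, at least 2.54-fold higher. Itih1, which lies in the same row on chromosome 14, was under the floor on both arrays (8.27 and 11.7), and Itih2, on another chromosome, was 1.41-fold lower (114 and 80.8). Vtn (vitronectin, an adhesive protein of plasma and matrix) had 440 and 935, 2.12-fold higher, and its other probe set 121 and 243, 2.01-fold higher. Of the 6 genes measured, 4 reached 2-fold higher, beside 5.79% of all measured genes, and 2 were lower by less. Of those 4, Itih4 was higher by 0.43 on the log2 scale with the floor of 49.0 and 0.95 with log2(signal + 64), Ahsg by 0.20 with a floor of 100, and Vtn by 0.96 with equal medians and 0.99 with log2(signal + 64), whereas Itih3 stayed past 2-fold.

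The enzymes and hepcidin were at, near or under the floor on both arrays. Tat, which starts the breakdown of tyrosine, was under the floor on both arrays (17.1 and 4.57). Tdo2, which starts the breakdown of tryptophan, had 34.8 and 18.7, or 1.34-fold or more lower in the EiPS tumours, with its other probe set under the floor on both. Hamp (hepcidin, the liver hormone that limits iron uptake) had 26.7 and 26.5, at the floor, and 18.6 and 32.3, at least 1.24-fold higher in the EiPS tumours, by its other probe set. The mean of both gave a difference of 0.15 on the log2 scale.

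Most of the other hepatocyte genes measured had higher signals in the EiPS tumours, though many of those listed were under the floor. Of 31 listed hepatocyte enzymes and surface proteins, 27 had a probe set of their own. Of these, 12 were under the floor on both arrays. Among the 12 were the asialoglycoprotein receptor genes Asgr1 (1.92 and 24.3) and Asgr2 (8.79 and 11.8). The bile acid transporter Slc10a1 (15.8 and 25.3) and G6pc, the last enzyme of glucose release (23.4 and 23.3), were also among them. Asgr1, Slc10a1 and G6pc were just under the floor in the EiPS tumours. Of the 15 measured, 12 were higher in the EiPS tumours, 3 by at least 2-fold and 1 lower by that much, with a median of 0.67. Aass, an enzyme of lysine breakdown, was 2.69-fold higher, Arg1 (arginase, also a gene of macrophages) 2.32-fold and the urea cycle gene Otc 2.01-fold higher. Bhmt, which remethylates homocysteine, was 2.05-fold lower and the vitamin E carrier Ttpa 1.90-fold lower, while Khk (ketohexokinase, the first enzyme of fructose use) was 1.93-fold higher.

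Transcription factors of liver and visceral endoderm differed little. Of 19 measured, 15 were higher in the EiPS tumours, 3 of these 15 above the floor there only, and the median was 0.29. Of the 16 above it on both arrays, 12 were higher. Only 1 gene reached 2-fold higher, beside 5.79% of all measured genes. That gene was Hnf4a, a nuclear receptor of hepatocytes, visceral endoderm and gut, with signals of 94.1 and 221, 2.35-fold higher. Foxa2 was 1.77-fold, Cebpa 1.59-fold and Creb3l3 1.57-fold higher, and Prox1 at least 1.66-fold and Nr1i3 at least 1.56-fold.

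Lists of related functions had medians between 0.24 and 0.57. Of 23 other clotting, anticoagulant and fibrinolysis genes measured, 19 were higher and 3 by at least 2-fold: Hgfac (at least 2.55-fold), the antithrombin gene Serpinc1 (at least 2.18-fold) and the endothelial gene Vwf (2.01-fold). Of these 19, 6 were above the floor in the EiPS tumours only, Hgfac and Serpinc1 among them, and could only be higher. Of the 15 above it on both arrays, 13 were higher and 1 by at least 2-fold. The antiplasmin gene Serpinf2 was 1.87-fold higher, and the receptors Plaur and Procr 1.83-fold and 1.77-fold. Lipoprotein genes, 21 measured, had a median of 0.24 and 3 past 2-fold, Abcg5 (2.41-fold), Angptl4 (2.38-fold) and Lpl (2.01-fold). Apod and Clu were 1.79-fold and 1.63-fold higher, and Mttp, which loads fat onto apolipoprotein B, was 1.57-fold lower.

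The acute phase and iron list had 20 measured genes, 16 of them higher and 6 past 2-fold, beside 56.2% and 5.79% of all measured genes. Its median was 0.41. Of the 17 above the floor on both arrays, 13 were higher and 5 past 2-fold. Lcn2, an iron-binding defence protein of neutrophils and epithelia, was 12.1-fold higher. The serum amyloid genes Saa3 and Saa1 were higher by 3.37-fold and by 2.75-fold or more, the haem-degrading enzyme Hmox1 3.20-fold, Socs3 2.65-fold and Osmr 2.32-fold. Crp (19.5 and 23.9) and Il6 (1.42 and 24.1) were under the floor on both arrays, by little in the EiPS tumours.

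Markers of other cells that make some of these proteins also differed between the pools. The enterocyte list had 16 measured genes, 7 at least 2-fold higher and 1 lower, beside 5.79% and 3.05% of all measured genes. Its median was 0.58 and its summed signals were 5322 and 7012. In it Krt20 was 5.13-fold, Slc5a1 3.74-fold and Mep1b 2.48-fold higher, and Lgals4 and Cdh17 2.27-fold and 2.24-fold, whereas the fatty acid carrier Fabp2 was 2.73-fold lower. Cdx1 was under the floor on both arrays. Without Lgals4, the gene of largest change in signal, the sums were 4461 and 5059. Visceral endoderm and yolk sac markers, 23 measured and 7 of them also on the transcription factor list, had 16 higher and 7 lower. Their median was 0.29, and 5 were at least 2-fold higher, beside 5.79% of all measured genes. Their sums were 9365 and 16490, and 4775 and 6097 without Col4a1. Lama1 was 5.11-fold, Rhox5 3.23-fold, Pla2g12b 3.14-fold, Hnf4a 2.35-fold and Col4a1 2.26-fold higher, and Spink1 1.99-fold. The 7 lower ones were Npnt (1.88-fold), Cited1 (1.77-fold), Amn (1.62-fold), Gata4 (1.34-fold), Hhex (1.33-fold), Ihh (1.23-fold) and Cubn (1.05-fold). Amn and Cubn are the receptor pair of yolk sac and gut.

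Macrophage markers had a median of 0.32 over 16 measured genes, 11 higher and 5 lower, with sums of 18332 and 25191 (14229 and 17267 without Lyz2) and with Cd163 and Vsig4 under the floor on both arrays. Msr1 was 2.78-fold, Cd68 2.09-fold, Lyz2 1.93-fold, Trem2 1.66-fold, C1qb 1.47-fold and C1qc 1.41-fold higher in the EiPS tumours. Csf1r, Adgre1, Mrc1, Cd14 and Itgam were lower, by 1.04-fold for Adgre1 to 1.23-fold for Itgam. Choroid plexus markers, 8 measured with 5 higher and 3 lower, had a median of 0.54 and Slc4a5 under the floor on both. Their sums were 2472 and 2479, and 1192 and 2199 without Sostdc1. Sostdc1 was 4.58-fold lower and Otx2 2.46-fold higher, Aqp1 and Calml4 1.98-fold and 1.97-fold, Kcne2 at least 1.63-fold and Folr1 1.30-fold higher. Of the pancreas and lung markers, 6 were measured, with a median of 1.19, sums of 805 and 1568 (701 and 886 without Sftpc), and Pdx1, Cpa1 and Nkx2-1 under the floor on both arrays. Sftpc was 6.57-fold, Sftpb 3.18-fold, Cela1 2.22-fold and Ins2 at least 2.32-fold higher, Gcg was 1.03-fold higher and Scgb1a1 1.72-fold lower. The part of each cell type in the differences of the plasma protein genes was not tested.

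**Figure D4:**
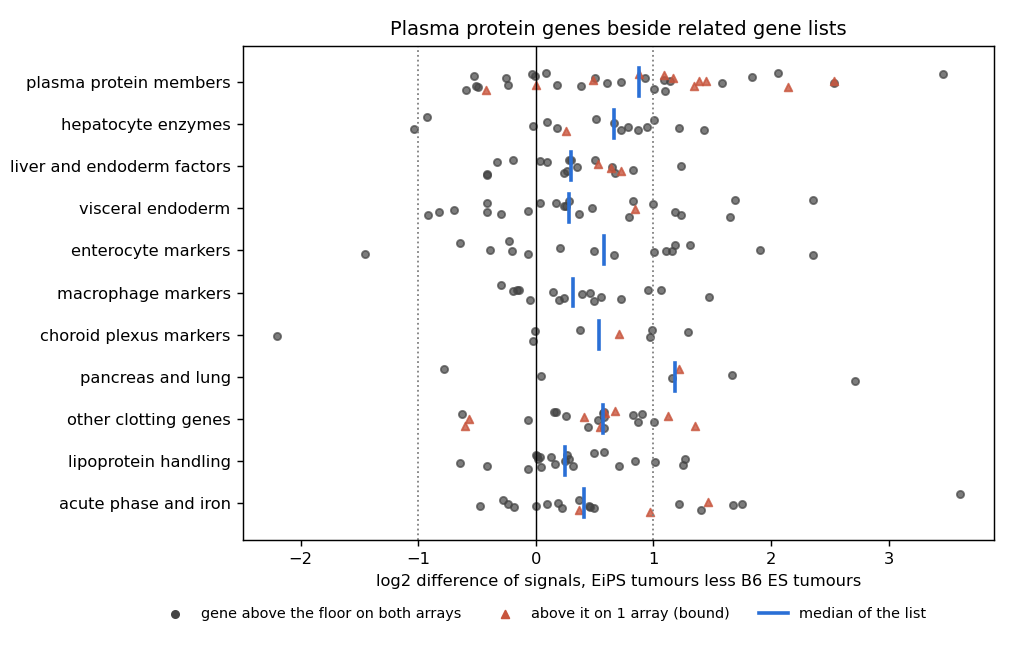
Log2 differences (EiPS tumours less B6 ES tumours) of the plasma protein genes and of 10 related gene lists; each point is a gene, triangles are bounds and blue bars list medians. The plasma protein genes have a median of 0.88, which includes the 10 above the floor in the EiPS tumours only. Over genes above it on both arrays their median is 0.55. That is below pancreas and lung markers (1.15), hepatocyte enzymes (0.70), enterocyte markers (0.58) and other clotting genes (0.57).

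The scaling of the arrays changed the count of plasma protein genes past 2-fold but gave none that was 2-fold lower. Over the whole array, 634 measured genes were higher by 2-fold or more and 334 lower, so that 65.5% of these were higher, against 53.0% after quantile normalization, 52.5% with equal medians and 59.1% after loess scaling. The count of plasma protein genes at least 2-fold higher was 12 of 35, 13 of 34 and 14 of 34 under these scalings. Of all measured genes, 4.43%, 4.61% and 5.10% were at least 2-fold higher under the same scalings. Genes above the floor in the EiPS tumours only are in these counts, and they could only be higher. Alb, Afp, Hp and Itih3 were at least 2-fold higher under the main choice and all 10 alternatives. Apoa1 was so in the main choice and the 9 alternatives that measured it, since 1 alternative leaves out all its probe sets.

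**Figure D5:**
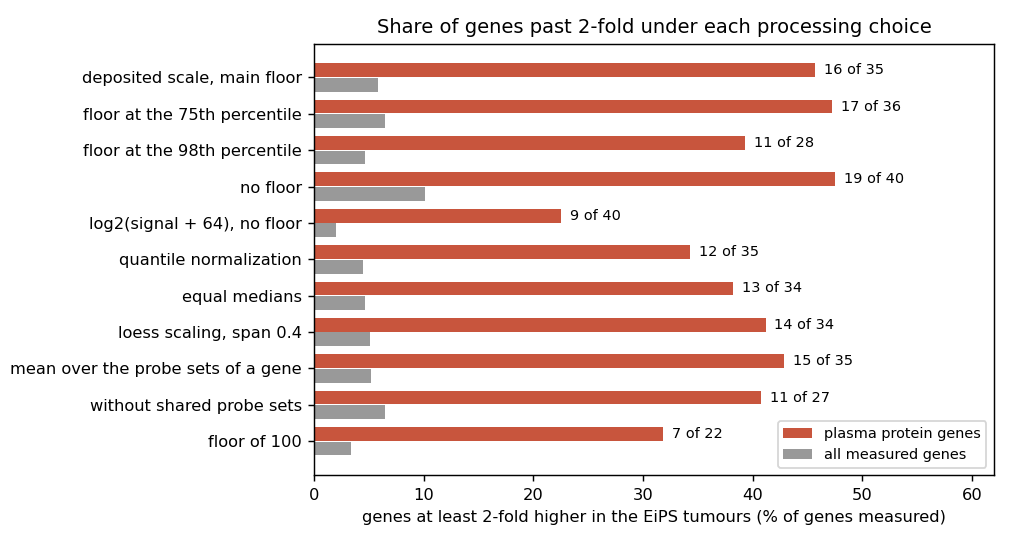
Share of genes at least 2-fold higher in the EiPS tumours (% of genes measured) under each processing choice, for plasma protein genes (red, with counts) and all measured genes (grey). The share is 45.7% (16 of 35) in the main choice and runs from 22.5% (9 of 40) with log2(signal + 64) to 47.5% (19 of 40) with no floor. For all measured genes it is 5.79%, 1.98% and 10.1% under those 3 choices. In the main choice, genes above the floor in the EiPS tumours only could only be higher. Of the 24 above it on both arrays, 9 reached 2-fold higher, beside 4.89% of all such genes.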

How the data were processed

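The deposited values are probe set intensities (signals) that the authors made with Affymetrix Expression Console and MAS5, per the submitters' processing notes. Their versions and settings were not given in the sources used here. The 2% trimmed mean was 500.2 on both arrays, so the values had been scaled alike, and median signals were 179 and 196. Low MAS5 signals are noisy, since mismatch signal is subtracted. Samples were grouped by their labels. Probe sets were named from the platform annotation, updated by Entrez identifier through RefSeq (GRCm38.p6): of 22690, 20380 had 1 symbol and 20351 of these matched. The floor is the 90th percentile of 72 silent receptor probe sets. Python 3.11.15 with pandas 2.3.3 and numpy 2.4.6 computed log2 differences; no test was made, since each group has 1 array. The procedure was tested on simulated data, with differences made only in genes with signals over 100 on both arrays. Calls near the floor were not tested in this way. Each member with its own probe set was named, with up to 6 genes of each other list with the largest absolute differences; Amn, Cubn, Npnt, Cited1, Gata4, Hhex, Ihh, Csf1r, Adgre1, Mrc1, Cd14, Itgam and the non-member genes given as under the floor were named after their values were seen. The C/EBP matches were chosen for the printed promoters after the matches were known, and other letters searched are not reported here. Members and lists were chosen with earlier results of these data known. Alternatives were other floors, no floor, log2(signal + 64), 3 scalings, averaged probe sets, and no shared probe sets.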

Additional observations from a re-analysis of the deposited data

How the results depend on the processing

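Each value was recomputed under 9 other choices of processing and with a floor of 100, which was chosen after seeing the data. The median log2 difference over the plasma protein genes, 0.88, was 0.46 with log2(signal + 64). The count of these genes at least 2-fold higher, 16, was 9 with log2(signal + 64) and 7 with a floor of 100; by construction, both shrink differences of low signals. The count at least 2-fold lower, 0, was 2 with no floor, where Tat and F9 have signals under the main floor on both arrays. The other counts of members past 2-fold stayed within 1.5 times the main ones, and no member past 2-fold changed sign. Over all genes, the counts of 634 higher and 334 lower were 1249 and 720 with no floor, 246 and 187 with log2(signal + 64), and 305 and 244 with a floor of 100. Of 319 member values under alternatives, 274 moved by less than the SD between probe sets of a gene (0.40) and 45 by more. The 319 leave out a member where an alternative put it under the floor on both arrays or left it no probe set. Fga, Fgb, Fgg, F7, F10, Hpx, Itih4, Apom, Ahsg, Orm1 and Tdo2 were under the main floor on 1 array and depend on it. Apoa2, Apoh and F2 moved by more than the SD of 0.40 with a floor of 100. The median over all genes was 0.07, and -0.06 with equal medians. No paired analysis was possible because each group has 1 array. Signal over background limits all values under about 100.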
